A study of Equus caballus with 14 samples.

Results

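This account concerns 4 of the 26740 equine genes counted in the series, the Ensembl genes ENSECAG00000000579, ENSECAG00000015510, ENSECAG00000022513 and ENSECAG00000016856. They were chosen from the measured values, because their messenger RNA was lower in pregnant than in cyclic endometrium in each of the 4 pairs of samples with the same number, and because the level of 2 of them varied widely between mares. The size of the fall is therefore given as a description with no test, whereas the embryos had no part in the choice. The count files give Ensembl identifiers without symbols, and 0 of the 26740 identifiers matched the RefSeq table of equine genes, so the position, sequence and function of the 4 genes were not analysed here.

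Warmblood mares were sampled 13 days after ovulation, in a cyclic control cycle in which the mare was left unbred (n = 4) and in a pregnant cycle in which she was inseminated with fresh semen of a single stallion (n = 5). All mares, in both kinds of cycle, had received hCG before ovulation, and each mare served as her own control, with the order of the cycles varied at random. Endometrial biopsies were taken after collection of uterine fluid on a tampon. In pregnant cycles a uterine flush before the biopsy recovered the embryo, and the methods do not say whether cyclic mares were flushed. Embryonic tissue from the same pregnant cycles (n = 5) was stored without its capsule and was sequenced as the third group. Mare 5 has a pregnant but no cyclic library, since the methods of the study describe low RNA quality for her cyclic sample. A biopsy is a mixture of cell types, so fewer cells of a type and less RNA per cell cannot be told apart. Without symbols the labelled tissues could not be checked against marker genes.

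The endometrium lines the uterus and answers to ovarian steroids, above all to progesterone from the corpus luteum during dioestrus. If no embryo is present, uterine prostaglandin F2α ends the life of the corpus luteum and the mare returns to oestrus. Maternal recognition of pregnancy is the name for the events that spare the corpus luteum, and in the horse they take place before the conceptus attaches to the uterine wall. A comparison within mares on day 13 addresses which endometrial transcripts differ between the 2 states.

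The endometrium libraries held from 21.8 to 46.9 M counts (M stands for 1000000) and the embryo libraries from 23.5 to 240 M. Levels are given as counts per 1000000 counts of the library (CPM), scaled by TMM factors, which correct for differences in library composition. In endometrium the factors lay between 0.902 and 1.07, and a floor of 3 counts corresponded to between 0.06 and 0.154 CPM. Embryo 1 stood apart from all other libraries, since its 10 most counted genes took 91.7% of its counts against 17.5% to 33.9% in embryos 2 to 5. Results that involve the embryos are therefore given with and without it.

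The fall of ENSECAG00000000579 was one from a variable to an even level. In cyclic mares 1 to 4 the gene stood at 113, 108, 61.1 and 141 CPM on the endometrium scale. In pregnant mares 1 to 5 it stood at 22.8, 21.7, 17.6, 22.9 and 21.8 CPM. The groups did not overlap, and the lowest cyclic value was 2.66-fold above the highest pregnant value. Cyclic mares averaged 106 ± 33.1 CPM (SD, n = 4), whereas pregnant mares averaged 21.4 ± 2.19 CPM (SD, n = 5), so the coefficient of variation was 31.4% in the former and 10.2% in the latter. Within mares the pregnant level was 4.96-fold, 4.95-fold, 3.48-fold and 6.15-fold lower in mares 1 to 4. Mare 3, the lowest in both states, showed the smallest fall and mare 4, the highest when cyclic, the largest.

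ENSECAG00000015510 had the lowest level of the 4 genes in pregnant endometrium. The gene had 1164, 304, 937 and 1700 counts in cyclic mares 1 to 4, or 29.7, 15.6, 22.8 and 34.0 CPM. In pregnant mares 1 to 5 it had 54, 52, 63, 14 and 34 counts, or 1.39, 1.27, 1.35, 0.371 and 0.903 CPM. Here too the groups did not overlap, with the lowest cyclic value 11.2-fold above the highest pregnant value. The pregnant level was 21.4-fold, 12.2-fold, 16.9-fold and 91.6-fold lower in mares 1 to 4. Mare 4 thus had the highest cyclic and the lowest pregnant level of the 4 mares. Her pregnant value rests on 14 counts, with an exact 95% Poisson interval from 7.65 to 23.5 counts that covers counting error only, whereas the other 3 paired mares had from 52 to 63 counts. The interval did not reach the 38.8 counts at the lower bound of mare 2, whose library held 41.6 M counts against 36.6 M in mare 4.

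The other 2 genes had a range between mares, within either state, that exceeded the fall within mares. ENSECAG00000022513 stood at 101, 59.2, 12.6 and 62.6 CPM in cyclic mares 1 to 4 and at 34.7, 14.1, 3.67, 12.9 and 18.2 CPM in pregnant mares 1 to 5. The highest cyclic value was 8.02-fold above the lowest, and the range among pregnant mares was 9.45-fold. Mare 1 was highest and mare 3 lowest in both states, while mares 2 and 4 lay close together in between. The groups overlapped, as the cyclic level of mare 3 was under the pregnant level of mares 1, 2, 4 and 5. Even so, each mare was lower when pregnant, by 2.93-fold, 4.19-fold, 3.45-fold and 4.87-fold in mares 1 to 4.

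ENSECAG00000016856 stood at 129, 207, 95.2 and 16.6 CPM in cyclic mares 1 to 4. In pregnant mares 1 to 5 it stood at 47.9, 41.0, 31.4, 4.59 and 12.9 CPM. The range was 12.5-fold among cyclic and 10.4-fold among pregnant mares. Mare 4 was lowest in both states, mare 3 came next among the paired mares, and mares 1 and 2 exchanged places at the top. The cyclic level of mare 4 lay under the pregnant level of mares 1 to 3, so the groups overlapped. The pregnant level was nevertheless 2.69-fold, 5.05-fold, 3.03-fold and 3.61-fold lower in mares 1 to 4. The low mare was not the same for both genes, since mare 3 was lowest for ENSECAG00000022513 and mare 4 for ENSECAG00000016856.

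**Figure D1:**
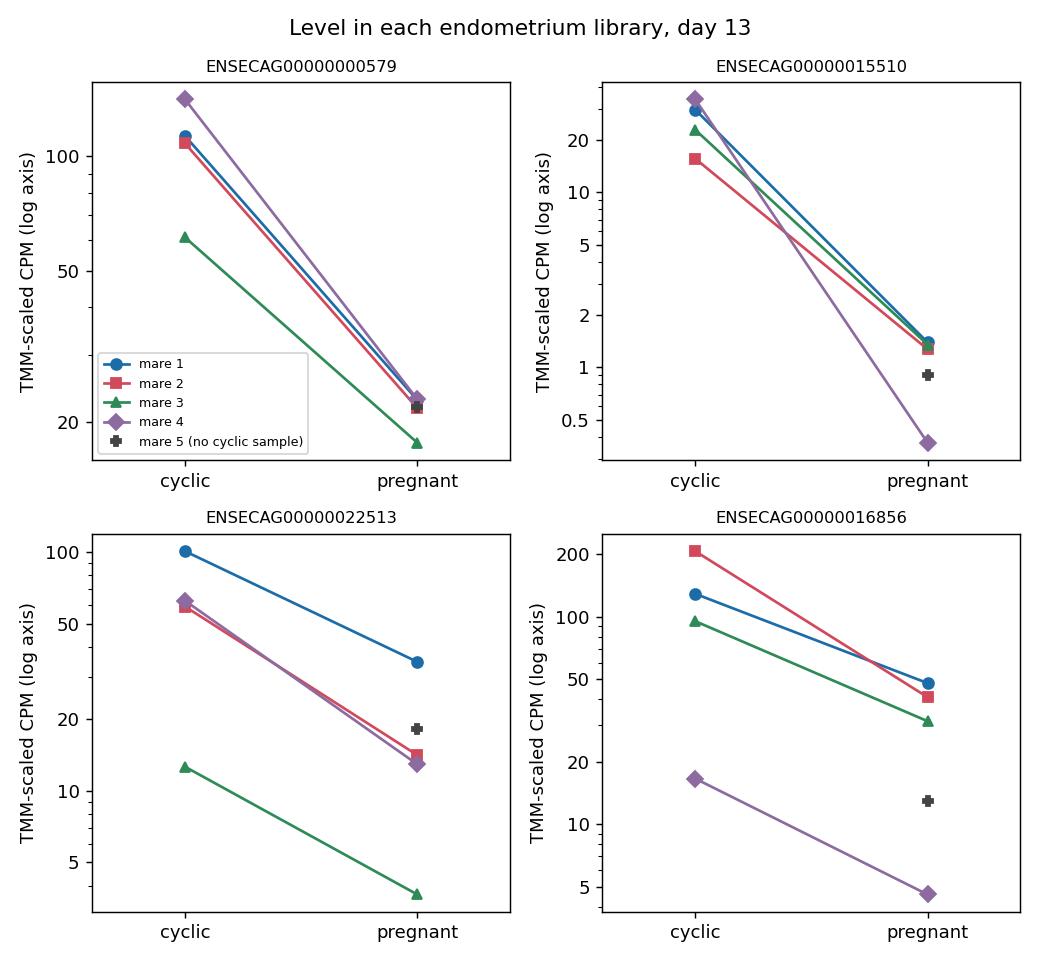
TMM-scaled CPM (log axis) of the 4 genes in each cyclic and pregnant endometrium library, with a line joining the libraries of the same mare and mare 5 shown as a single point. The lines of ENSECAG00000022513 and ENSECAG00000016856 start and end at widely spaced levels, whereas those of ENSECAG00000000579 end within 17.6 to 22.9 CPM. The line of mare 4 crosses the others for ENSECAG00000015510.

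The rule asked for a fall in all 4 pairs, and 1272 of the 11892 genes tested in endometrium met it (10.7%). None of the 4 genes was close to the limit of the rule, a change of 0. The smallest single change of any of them, on log2 CPM, was -1.43, for ENSECAG00000016856 in mare 1. Ranked by mean change among the 1272 genes, ENSECAG00000015510 was in place 1, ENSECAG00000000579 in place 3, ENSECAG00000022513 in place 11 and ENSECAG00000016856 in place 15. The 5 pregnant values lay under all 4 cyclic values for 2 of the 4 genes, ENSECAG00000000579 and ENSECAG00000015510, against 1.61% of all tested genes. Nothing is read from that share, from the ranks or from the distance to the limit, as the choice was made on this contrast.

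Pregnant mare 5 had no cyclic partner and was not part of the rule, but the cyclic values set beside her were. Her levels of ENSECAG00000000579, ENSECAG00000015510 and ENSECAG00000016856, at 21.8, 0.903 and 12.9 CPM, were under the lowest cyclic value of each gene (61.1, 15.6 and 16.6 CPM). For ENSECAG00000022513 she had 18.2 CPM, which was above the 12.6 CPM of cyclic mare 3 and under the other 3 cyclic values. Among the 1272 genes lower in all 4 pairs, the value of mare 5 was under all cyclic values for 603 (47.4%), against 15.1% of all tested genes. Since the rule had used these cyclic values, nothing is read from the position of mare 5 or from these shares. With a single sample, no test was made.

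Whether the mare is taken into account mattered for 2 genes in particular. For ENSECAG00000022513, the 4 changes within mares averaged -1.92 on log2 CPM with a standard error of 0.16. The same difference taken between groups, as if the mares were unrelated, had a standard error of 0.93, which was 5.77-fold larger. For ENSECAG00000016856 the mean change was -1.80, with a standard error of 0.20 within mares and of 1.12 between groups, a ratio of 5.66. Over the 11892 tested genes the median ratio was 1.21. The standard deviation of the mare means was 1.30 for ENSECAG00000022513 and 1.56 for ENSECAG00000016856 on log2 CPM, against a median of 0.238 over all tested genes. A wide spread between mares was a reason for choosing these 2 genes, so nothing is read from their distance to the other genes.

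For ENSECAG00000000579 the mean change of -2.26 had a standard error of 0.17 within mares and of 0.27 between groups, a ratio of 1.59 that exceeded 73.4% of tested genes. In ENSECAG00000015510 pairing did not narrow the error. Its mean change was -4.57, with a standard error of 0.61 within mares and of 0.50 between groups, and its ratio of 0.814 exceeded that of 6.79% of tested genes only. The cyclic and pregnant order of the mares differed for this gene, as mare 4 moved from the highest to the lowest place.

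**Figure D2:**
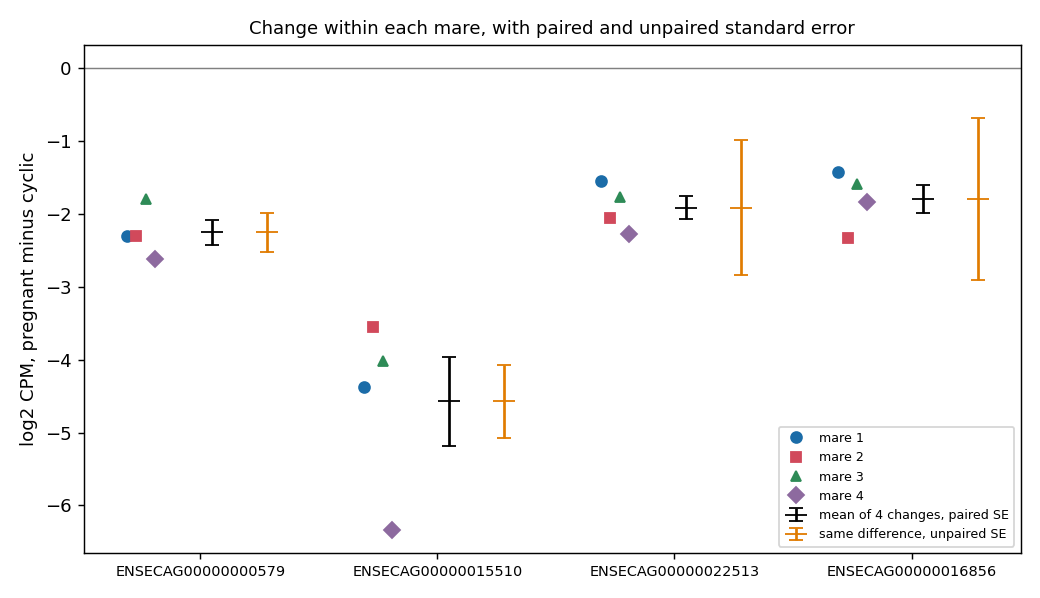
Change in log2 CPM from cyclic to pregnant endometrium in each of 4 mares (coloured symbols), with the mean ± its standard error within mares (black bar) and between unpaired groups (orange bar). The unpaired bars of ENSECAG00000022513 and ENSECAG00000016856 are over 5 times as long as the paired ones, whereas mare 4 widens the paired bar of ENSECAG00000015510.

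How far these patterns depended on single mares differed between the genes. Without mare 4, the cyclic range of ENSECAG00000016856 shrank from 12.5-fold to 2.17-fold and its ratio of standard errors from 5.66 to 1.34, and without mare 2 that ratio rose to 11.6. In the absence of mare 3, the cyclic range of ENSECAG00000022513 shrank from 8.02-fold to 1.71-fold and its ratio from 5.77 to 2.38, and without mare 4 the ratio was 8.67. The cyclic range of ENSECAG00000000579 likewise shrank from 2.31-fold to 1.31-fold without mare 3, while its ratio lay between 1.19 and 1.79 over the omissions. For ENSECAG00000015510, omission of mare 4 reduced the mean change to -3.99 and its paired standard error to 0.24, and the ratio became 1.16. The mean change stayed negative in each of these omissions for the 4 genes. That outcome was fixed by the rule, which required a fall in all 4 pairs.

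A count model with the mare as a block gave similar values. Its log2 change was -2.26 (SE 0.21) for ENSECAG00000000579, -4.57 (SE 0.46) for ENSECAG00000015510, -1.92 (SE 0.21) for ENSECAG00000022513 and -1.80 (SE 0.22) for ENSECAG00000016856. Without the block, and with mare 5 then included in the contrast, the changes in the same order were -2.31 (SE 0.24), -4.59 (SE 0.38), -1.82 (SE 0.61) and -2.02 (SE 0.70). As a fold, ENSECAG00000016856 was 3.49-fold lower in pregnancy in the paired and 4.06-fold lower in the unpaired model.

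**Figure D3:**
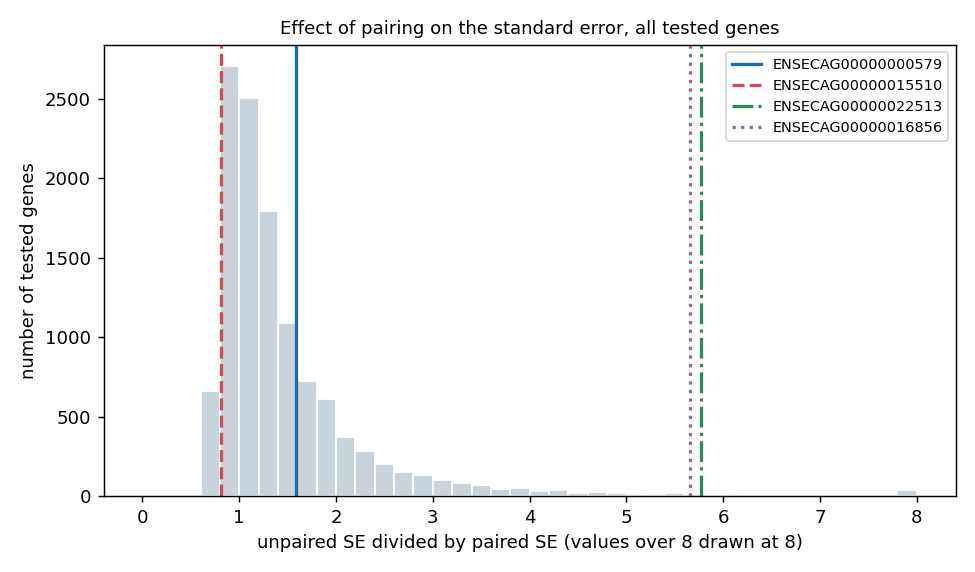
Histogram of the ratio of the unpaired to the paired standard error over the 11892 tested genes (x axis, ratio; y axis, number of genes), with the 4 genes as vertical lines. ENSECAG00000015510 lies at the low end (0.814), ENSECAG00000000579 near the median of 1.21 (1.59), and ENSECAG00000016856 (5.66) and ENSECAG00000022513 (5.77) lie in the upper tail.

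To describe the 4 genes in the embryo, all 14 libraries were put on a joint TMM scale. On that scale ENSECAG00000000579 had 48.3, 53.6, 27.3 and 33.0 CPM in embryos 2 to 5 and 1.32 CPM, from 2 counts, in embryo 1. Pregnant endometrium had 11.1 to 14.4 CPM and cyclic endometrium 37.9 to 88.5 CPM on this scale. Embryos 2 to 5 were thus all above the 5 pregnant values, by 3.02-fold in the mean, and embryos 4 and 5 were under all 4 cyclic values. The share of all genes with embryos 2 to 5 above the pregnant samples was not computed, so nothing is read from this separation. For embryo 1 the floor of 3 counts was at 1.98 CPM, above its measured level.

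The remaining genes were low or undetected in embryos. ENSECAG00000016856 had 2.35, 4.41, 3.97 and 2.60 CPM in embryos 2 to 5 and 0 counts in embryo 1, against 2.86 to 30.3 CPM in pregnant endometrium. Embryos 1, 2 and 5 were under the lowest pregnant value, that of mare 4, and embryos 3 and 4 were above it. Over embryos 2 to 5 the range was 1.88-fold, against 10.6-fold among pregnant mares. The mean of these embryos was 5.22-fold under that of pregnant and 21.0-fold under that of cyclic endometrium.

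For ENSECAG00000022513, embryos 2, 4 and 5 had 16, 353 and 33 counts, or 0.989, 1.63 and 1.72 CPM. Embryos 1 and 3 had 0 counts, and the floor of 3 counts, the limit used here for a count of 0, was at 1.98 and 0.0639 CPM. Embryos 2 to 5 were under the lowest pregnant value of 2.31 CPM, and 35.5% of tested genes likewise had embryos 2 to 5 under the 5 pregnant samples. Embryo 1 could not be placed relative to the lowest pregnant value, since its limit lay close to it. The limit for embryo 3 lay under the levels of embryos 2, 4 and 5. The limit for embryo 1 lay above them, so a difference between embryo 1 and those 3 was not detectable.

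ENSECAG00000015510 had 0 counts in all 5 embryos. In embryos 2 to 5 this allowed levels of up to 0.185, 0.0639, 0.0139 and 0.156 CPM, all under the lowest pregnant value of 0.231 CPM. The mean of pregnant endometrium was 0.666 ± 0.273 CPM (SD, n = 5), so the gene was at least 6.36-fold lower in embryos 2 to 5, relative to their mean floor of 0.105 CPM. With embryo 1, whose floor exceeded every pregnant value, the bound was 1.39-fold. In comparison with cyclic endometrium, which had 15.9 ± 5.02 CPM (SD, n = 4) on this scale, embryos 2 to 5 were lower by at least 152-fold.

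**Figure D4:**
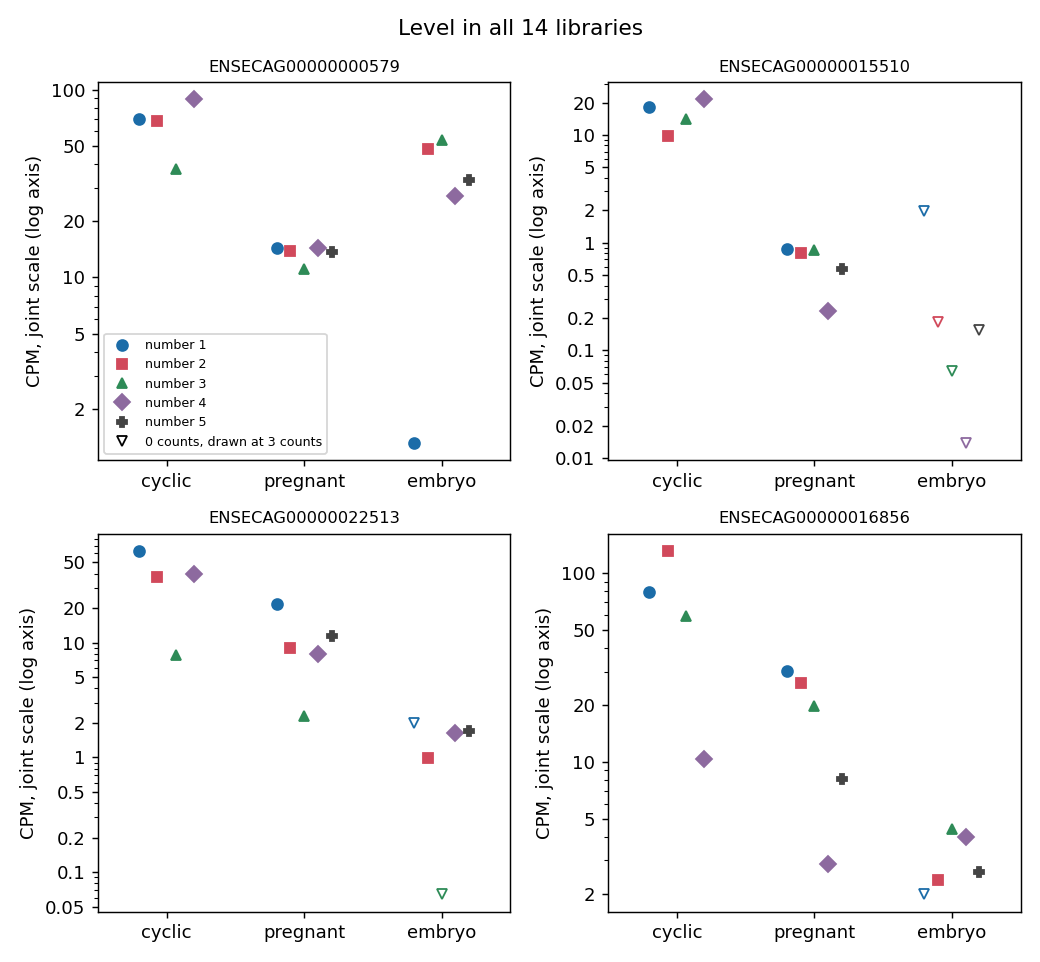
CPM on the joint scale (log axis) of the 4 genes in the 4 cyclic, 5 pregnant and 5 embryo libraries, with open triangles at the floor of 3 counts for libraries with 0 counts. ENSECAG00000000579 is the gene for which embryos 2 to 5 lie above all pregnant libraries, at 27.3 to 53.6 CPM, and ENSECAG00000015510 has open triangles in all 5 embryos.

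The difference between embryo and pregnant endometrium was tested for all genes with the likelihood ratio test of edgeR, and a gene was called at an adjusted p under 0.05 if it also changed over 2-fold. The 4 genes had been chosen for being lower in the pregnant samples, which favours higher embryo values relative to those samples. Of the 4 genes, 3 passed the filter on low counts. ENSECAG00000022513 and ENSECAG00000016856 passed it through pregnant libraries only, since their highest embryo levels were 1.41 and 3.53 CPM on the scale of this comparison. The filter thus kept these 2 genes for their level in pregnant endometrium. ENSECAG00000022513 was lower in the embryo, with a log2 change of -3.46 (SE 0.90, adjusted p = 0.000918 by the likelihood ratio test of edgeR). So was ENSECAG00000016856, with a log2 change of -2.59 (SE 0.63, adjusted p = 0.000215 by the same edgeR test). Across all 11244 tested genes, 28.6% (3220 genes) were called lower in the embryo, although scaling by library size in place of TMM factors turned the split of 3052 higher and 3220 lower genes into 756 and 3975. By the quasi-likelihood test of edgeR the adjusted p-values were 0.00841 for ENSECAG00000022513 and 0.00709 for ENSECAG00000016856. Without embryo 1 the changes of these 2 genes were -3.31 and -2.41, with adjusted p-values of 0.00103 and 9.32e-05 in edgeR. In the model without the filter they were -3.35 and -2.48, with adjusted p-values of 0.00198 and 0.000859 by the likelihood ratio test of edgeR.

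ENSECAG00000000579 was called higher in the embryo, with a log2 change of 1.30 (SE 0.56, adjusted p = 0.0407 in edgeR), and 27.1% of the tested genes were called higher. Without embryo 1 the change was 1.55 (SE 0.24, edgeR adjusted p = 2.42e-10), but the call was lost when any 1 of the 5 pregnant libraries or embryo 2, 3 or 5 was left out (log2 changes of 1.15 to 1.38, edgeR adjusted p from 0.0558 to 0.118). With library size in place of TMM factors the change was 0.29 (edgeR adjusted p = 0.815). Each embryo was taken to come from the pregnant cycle of the mare with its number. With that number as a block the change was 0.96 (SE 0.66, edgeR adjusted p = 0.283). By the quasi-likelihood test of edgeR the adjusted p was 0.0854. The sign of the estimate turned with the reference group, since against cyclic endometrium the log2 change was -1.06 (SE 0.65, edgeR adjusted p = 0.161). Relative to the mean of both endometrium groups it was 0.15 (SE 0.45, edgeR adjusted p = 0.780).

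ENSECAG00000015510 exceeded 4 CPM in 0 of the 10 libraries and was tested in the model without the filter. It was lower in the embryo, at an edgeR adjusted p of 2.93e-09, and 25.7% of the 20516 genes in that model were called lower. No fitted fold is given, since all embryos were at 0 counts and the bounds above apply.

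Genes with the most similar pattern were found by Pearson correlation of log2 CPM over the 9 endometrium libraries, 8 of which came in pairs from 4 mares. The choice of the 4 genes on the contrast between states contributes to such likeness, and the values are a description with no test. Closest to ENSECAG00000000579 were ENSECAG00000015748 (Pearson r 0.980, Spearman rho 0.867) and ENSECAG00000015465 (0.952 and 0.933). Those closest to ENSECAG00000015510 were ENSECAG00000013743 (0.973 and 0.917) and ENSECAG00000006788 (0.954 and 0.883). For ENSECAG00000022513 they were ENSECAG00000017640 (0.965 and 0.983) and ENSECAG00000021347 (0.959 and 0.950), and for ENSECAG00000016856 they were ENSECAG00000024050 (0.959 and 0.950) and ENSECAG00000010251 (0.945 and 0.967). All 8 were lower in pregnancy in 4 of 4 mares, against 10.7% of tested genes. They were picked for likeness to genes with that fall, so nothing is read from it. In relative terms their mean level fell most for ENSECAG00000013743 (97.4 to 27.0 CPM) and least for ENSECAG00000017640 (145 to 126 CPM).

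Among the 4 genes themselves, ENSECAG00000000579 and ENSECAG00000015510 were most alike (Pearson r 0.937, Spearman rho 0.750), and each was in place 6 of 11891 genes in the list of the other. ENSECAG00000022513 and ENSECAG00000016856, the genes with the widest spread between mares, were least alike by Pearson r (0.393, Spearman rho 0.350). By Spearman rho the lowest value was 0.333, for ENSECAG00000000579 and ENSECAG00000016856.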

How the data were processed

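The authors deposited raw read counts per Ensembl gene for 14 libraries, with no normalisation or filter. According to the methods of the study and the labels, single reads were trimmed with cutadapt 1.11, then mapped and counted per gene in CLC Genomics Workbench on the EquCab horse genome. Whether strand was used, and how multi-mapping reads were handled, were not stated, so counts of overlapping or near-identical genes are uncertain.

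Counts were analysed in R 4.3.3 with edgeR 4.0.16. As in the study, genes with more than 4 CPM in at least 4 fitted libraries were kept, TMM factors were applied and a negative binomial model was fitted. Library sizes and factors were computed again after the filter. Pregnant and cyclic endometrium were modelled with the mare (replicate number in the labels) as a block. Mare 5, with no cyclic library, then enters through the filter and scaling and adds no change within mares. Embryo and pregnant endometrium were compared by the likelihood ratio test with Benjamini-Hochberg adjustment over all genes. Log2 CPM used a prior count of 2. Same-numbered cyclic and pregnant samples were taken to be from the same mare. The methods pair the cycles by mare, and the labels give only the number. Deviations of same-numbered samples from their group means had correlations from 0.0847 to 0.573 (mean 0.337), against a mean of -0.113 for other numbers. In the 4 pairs, 3 cyclic and 2 pregnant libraries correlated best with their own number. No 2 of the 14 libraries agreed within sampling noise (91 pairs, smallest chi-square per degree of freedom 60.6).

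The 4 genes, the reporting rule (these genes and the 2 most similar to each) and the lists were chosen with earlier results of these data known. Lists of growth factor, amino acid transport, protease, transcription factor and cell type marker genes could not be used without symbols. Replicates are separate mares and embryos. On simulated counts with 200 changed genes among the 11244 of the embryo comparison, the likelihood ratio test called 211 genes, of which 171 were changed and 19.0% were false, above the nominal 5%. The quasi-likelihood test called 154, of which 148 were changed and 3.9% were false. The false share depends on how many genes change. The real embryo comparison called 3052 genes higher and 3220 lower, so these shares do not carry over to it. Alternatives included the quasi-likelihood test of edgeR, DESeq2 1.42.0, other scalings, filters and reference groups, and omission of replicates.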

Additional observations from a re-analysis of the deposited data

Results flagged for a closer look

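In 14 groups of values (the levels of the 4 genes and the library totals in each group with 4 or 5 differing samples), the distance of the extreme sample from the next one was set against the range. A gap past the critical value was found in 2 groups, where chance would give 0.7. Pregnant mare 3 had 17.6 CPM of ENSECAG00000000579, against 21.7 CPM in the next pregnant mare, a gap of 0.774 of the range of the group. Her cyclic library was also the lowest of its group for this gene. The library of embryo 4 had 240 M counts and the next largest embryo library 50.8 M, a gap of 0.874 of the range.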

How the results depend on the processing

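The fall in pregnant endometrium kept its direction and stayed within 1 SD of the paired changes for the 4 genes in all 56 alternative fits, which gave -2.42 to -2.14 for ENSECAG00000000579, -4.91 to -4.02 for ENSECAG00000015510, -2.04 to -1.80 for ENSECAG00000022513 and -2.02 to -1.60 for ENSECAG00000016856, with and without the replicate block. The genes were chosen for that direction, so nothing is read from it. ENSECAG00000015510 did not pass the filter when a mare was left out, and a filter on 3 libraries, chosen after the data were seen, was used there. Of the alternatives for embryo against pregnant endometrium, 73 changed neither direction nor call. The other 16 all concerned ENSECAG00000000579 (1.30 as reported): the call was lost with the quasi-likelihood test (1.30, adjusted p = 0.0854), DESeq2's size factors (1.08), upper quartile factors (1.08), library size (0.29), the replicate block (0.96, adjusted p = 0.283) and a reference averaged over pregnant and cyclic endometrium (0.15), and the direction turned against cyclic endometrium (-1.06). Its change ranged from 1.15 to 1.55 when 1 library was left out, and library size without embryo 1, chosen after the data were seen, gave 0.61. ENSECAG00000022513 and ENSECAG00000016856 failed the filter when 1 pregnant library other than that of mare 3 or mare 4, respectively, was left out and were then tested without it, also a later choice. Embryo and pregnant samples with the same number were taken to come from the same cycle of a mare. Their deviations had a mean correlation of 0.024, and 1 of 5 samples on either side correlated best with its own number. The block ended no other call of the 4 genes. With it, 2448 genes were called higher and 3321 lower in the embryo, against 3052 and 3220. Library size left 756 genes called higher, and without a filter 5274 were called lower. Relative to TMM factors the median log2 change of all genes shifted by -1.33 with library size, -0.276 with upper quartile factors and -0.115 with DESeq2's size factors. The causes were not tested. Library composition limits the statements on embryo 1. It held 44.6 M counts, but 91.7% were in 10 genes, and 3 counts correspond to 1.98 CPM at its joint TMM factor of 0.034.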
